A study of Mus musculus with 6 samples.

Results

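The genes described here are 10 components of the T cell receptor complex and of its proximal signaling, chosen by symbol from the 34590 rows of the deposited count table: Cd3d, Cd3e, Cd3g, Cd247, Cd4, Cd8a, Lck, Zap70, Cd5 and Cd28. All 10 were found and all 10 passed the filter on low counts. They were measured by RNA-seq in 6 libraries from 3 host mice. In each host, the inguinal gland (number 4) on the left carried a graft of WT.EGFP+ mammary epithelium (the WT gland) and the contralateral gland on the right a graft of Adamts18-/-.EGFP+ epithelium (the Adamts18-/- gland), so genotype and body side cannot be told apart. The Adamts18-/- allele lacks the exons of the catalytic site in every cell of the donor, the EGFP of both donors was driven by a constitutive chicken β-actin promoter, and the methods describe grafting into WT female hosts cleared of their own epithelium, on a C57BL/6JOlaHsd background. The stroma and the immune cells of a host were therefore WT beside either graft, except for cells carried over with the graft. The age of the hosts and the time after engraftment are not given for these 6 glands in the sources used here.

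αβ T cells recognise peptides on MHC molecules through a receptor whose antigen-binding chains have no signaling domain of their own. The signal is passed on by the invariant CD3 chains (Cd3d, Cd3e, Cd3g) and the zeta chain (Cd247), whose tyrosine motifs are phosphorylated by the kinase Lck. Lck is brought to the receptor by the co-receptors CD4 (with MHC class II) or CD8 (with MHC class I), the phosphorylated motifs recruit the kinase Zap70, CD28 adds a costimulatory signal and CD5 dampens the response. In the mammary gland, T cells lie within and around the ducts, and the inguinal fat pad also holds a lymph node.

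The 3 CD3 genes lie together on mouse chromosome 9 (GRCm38, GENCODE M21 annotation; the submitters' processing notes name mm9, so these coordinates are those of the annotation). Cd3g occupies 44969572 to 44980431 on the minus strand, Cd3d 44981786 to 44987339 on the plus strand and Cd3e 44998740 to 45009627 on the minus strand. Cd3d and Cd3g are transcribed away from each other from start sites 1355 bases apart. The 100 bases before the RefSeq start sites of these genes and of the upstream promoter of Lck are shown because these 4 genes differed in the same direction within each pair of glands below. Capitals mark letters, on either strand, that match the core GGAAGT of many ETS factor sites. They also mark the RUNX factor motif TGTGGT, the GATA factor motif AGATAA and the motif CTTTGA of the factors TCF and LEF. The E-boxes searched were CAGCTG and CACCTG, and the TATA box was searched as TATAAA. No match printed here overlaps another.
Cd3d (chr9:44981686-44981785, plus strand): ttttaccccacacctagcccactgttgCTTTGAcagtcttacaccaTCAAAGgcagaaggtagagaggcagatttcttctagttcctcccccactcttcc
Cd3e (chr9:45009612-45009711, minus strand): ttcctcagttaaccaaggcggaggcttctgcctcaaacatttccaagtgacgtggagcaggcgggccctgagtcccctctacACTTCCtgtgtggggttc
Cd3g (chr9:44980432-44980531, minus strand): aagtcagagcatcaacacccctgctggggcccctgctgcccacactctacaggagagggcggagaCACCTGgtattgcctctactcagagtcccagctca
Lck (chr4:129573642-129573741, minus strand): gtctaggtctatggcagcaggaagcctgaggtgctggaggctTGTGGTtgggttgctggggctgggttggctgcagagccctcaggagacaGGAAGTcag

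The RefSeq promoter table (GRCm38.p6) held 11 windows for 8 of the 10 genes, with several start sites for Lck and Zap70 and none for Cd4 and Cd28. In the 250 bases before the start, the ETS letters were found in 7 of the 11 windows, against 19.7% of all 32851 windows in the table, and the E-box CACCTG in 7 of the 11, against 17.2%. The RUNX letters were in 2 windows (14.0% of all windows), the TCF and LEF letters in 2 (13.8%), the GATA letters in 1 (9.99%), and CAGCTG and TATAAA in none (0; 13.0% and 12.4%). These are matches of letters in a fixed window, not measured binding.

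The targeted gene, Adamts18, was counted 252, 608 and 383 times beside the WT grafts (mice 1 to 3) and 144, 295 and 202 times beside the Adamts18-/- grafts, a log2 fold change of -0.83 (standard error 0.19, unadjusted p = 0.00922, adjusted p = 0.987, edgeR's quasi-likelihood test). Total counts ranged from 53875123 to 71595924 per library. The labels call the RNA that of sorted GFP+ mammary epithelial cells, whereas the methods speak of profiled glands. By CPM (normalised read counts, scaled to a common library size with edgeR's TMM factors), 8 epithelial genes summed to between 1080 and 1980 in the 6 glands. The sums of 6 fibroblast genes (8010 to 10900) and 5 adipocyte genes (3510 to 9070) were higher in each library. Sums of different genes do not measure the share of each cell type. The pan-leukocyte gene Ptprc (CD45) stood at 95.6, 98.1 and 203 CPM in the WT glands and 105, 86.5 and 549 CPM in the Adamts18-/- glands of mice 1, 2 and 3.

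Messenger RNA of all 10 T cell receptor genes was detected in every gland, between 89 and 7616 reads per gene. Each of the 10 was higher in both glands of mouse 3 than in any gland of mice 1 and 2. In mice 1 and 2, 9 of the 10 genes were lower in the Adamts18-/- gland than in the contralateral WT gland (Cd28 excepted), whereas in mouse 3 all 10 were higher in the Adamts18-/- gland, by 2.15- to 3.28-fold. Fewer T cells in a gland and less of these transcripts per T cell cannot be told apart in such bulk RNA.

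**Figure D1:**
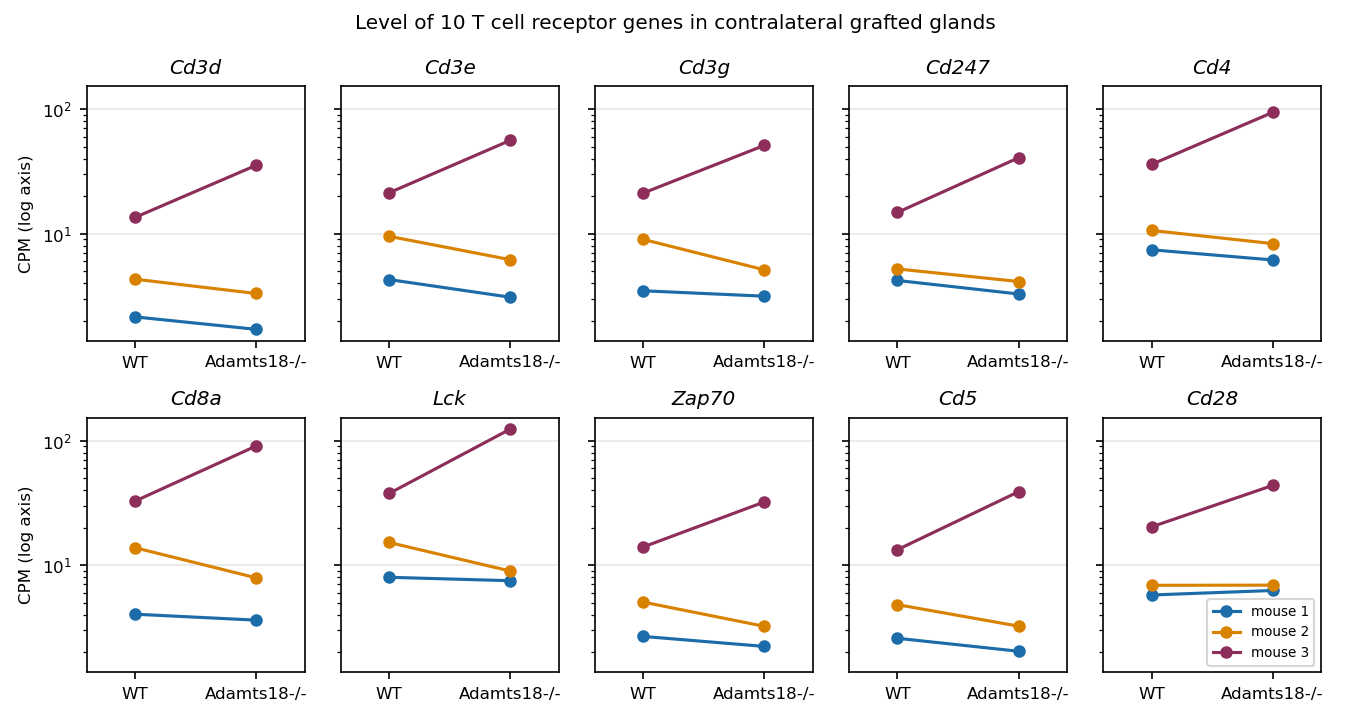
CPM of each of the 10 genes (log axis) in the WT and Adamts18-/- gland of each mouse, with a line joining the contralateral glands of 1 mouse. Both glands of mouse 3 lie above those of mice 1 and 2 for each gene, and the Adamts18-/- point is the higher one in mouse 3 and the lower one in mice 1 and 2, except for Cd28.

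Among the receptor chains, Cd3e, whose cytoplasmic tail binds several signaling adaptors, was at 4.27, 9.51 and 21.3 CPM in the WT glands (mice 1 to 3, in this order here and in the following sentences) and at 3.08, 6.17 and 56.2 CPM in the Adamts18-/- glands. Cd3d was at 2.14, 4.30 and 13.5 CPM in WT and at 1.70, 3.30 and 35.4 CPM in Adamts18-/- glands. The Adamts18-/- group thus held both the lowest and the highest library for both genes, and enclosed the range of the WT group. Cd3g, which pairs with Cd3e in the complex, was at 3.47, 8.98 and 21.2 CPM against 3.14, 5.11 and 51.2 CPM. Cd247, the zeta chain that carries most of the tyrosine motifs, was at 4.2, 5.2 and 14.8 CPM in WT against 3.27, 4.12 and 40.7 CPM in Adamts18-/- glands. Both followed the same order of libraries at the extremes, with the Adamts18-/- gland of mouse 1 lowest and that of mouse 3 highest.

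The co-receptors followed the same order. Cd4 was at 7.41, 10.6 and 36.0 CPM in WT and at 6.14, 8.31 and 94.3 CPM in Adamts18-/- glands. Cd8a, found on cytotoxic T cells and also on a subset of dendritic cells, was at 4.03, 13.8 and 32.7 CPM in WT and at 3.61, 7.90 and 90.7 CPM in Adamts18-/- glands. Cd8a had the widest range of the 10 genes, 25.1-fold between the lowest and the highest library.

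Of the kinases, Lck was at 7.98, 15.2 and 37.7 CPM in WT and at 7.49, 8.96 and 124 CPM in Adamts18-/- glands. Its ratio in mouse 3, 3.28 (95% counting interval 3.13 to 3.45), was the largest of the 10. Zap70 was at 2.67, 5.04 and 14.0 CPM against 2.22, 3.22 and 32.2 CPM, and its ratio in mouse 3 was 2.29 (2.11 to 2.49). Both kinases are also used by natural killer cells, whose own markers are given below.

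The modulators differed from each other. Cd5 was at 2.58, 4.81 and 13.3 CPM in WT and at 2.03, 3.23 and 38.9 CPM in Adamts18-/- glands, the pattern of the CD3 chains. Cd28 was at 5.75, 6.88 and 20.3 CPM in WT and at 6.25, 6.90 and 43.7 CPM in Adamts18-/- glands. Its contralateral glands in mice 1 and 2 were level, with ratios of 1.09 (0.937 to 1.26) and 1.0 (0.873 to 1.15), and its ratio in mouse 3, 2.15 (2.01 to 2.31), was the smallest of the 10.

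Per length of annotated exon, Lck had the highest level (RPKM, CPM per kilobase) in 6 of 6 glands, with a mean of 6.93 in WT and 16.0 in Adamts18-/- glands. Cd8a and Cd4 ranked between 2 and 4 in each gland, with WT means of 4.63 and 4.46 RPKM. Cd3d (3.67), Cd3g (3.43), Cd3e (2.87) and Zap70 (2.42) came next by WT mean. Cd28 (1.79), Cd247 (1.51) and Cd5 (1.4) were the lowest by WT mean, though the rank of Cd28 ranged from 3 to 10 across the glands. Some neighbours kept their order in all 6 glands, with Cd4 above Cd3d, Cd3g above Cd3e and Cd3e above Zap70, and others changed places. Below Lck, the differences between neighbours were smaller than the spread between mice. Exons of other annotated genes overlap those of Cd3e and Cd247 on the opposite strand, and those of Cd247 and Lck on the same strand. The strand setting of the counting is not given in the sources used here.

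The comparison of the grafts asks whether loss of Adamts18 in the epithelium changed the transcript content of the gland. With the mouse as a block, none of the 10 genes (0) passed the thresholds of the study (a fold change below 0.8 or above its inverse, and p below 0.05 before adjustment, here by edgeR's quasi-likelihood test), where 3.01% of the 17345 genes tested did. None had an unadjusted p under 0.05 (0 of 10, against 3.86% of all genes tested), and none passed by adjusted p (0 of 10, against 0.0% of all genes tested). By adjusted p with DESeq2 it was again 0 of 10, against 0.409% of all genes tested, and with limma-voom 0 of 10, where 0 of all 17345 genes tested passed. The fitted log2 fold changes lay between 0.11 and 0.42, with a median of 0.24 against 0.001 over all genes tested. Cd28 had the smallest standard error and p, a log2 fold change of 0.42 (standard error 0.25, unadjusted p = 0.16, adjusted p = 0.987). For Cd3e it was 0.11 (standard error 0.46, unadjusted p = 0.815), and for Lck, with the largest standard error, 0.29 (0.52, unadjusted p = 0.598). The standard error exceeded the fitted value for each of the 10 genes except Cd28, and the pairs of glands differed in opposite directions. Without the mouse as a block the fitted values were larger, from 0.79 to 1.2, and again none of the 10 passed (0), against 1.98% of all genes tested.

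Within single pairs, the differences exceeded the counting error for many of the genes. Ratios of the Adamts18-/- to the WT gland had 95% counting intervals (exact binomial) that lay wholly above 1 for 10 of 10 genes in mouse 3. In mouse 2 they lay below 1 for 9 genes, and in mouse 1 for 3 (Cd3e, Cd247 and Cd4), and included 1 for the others. The median ratio was 0.830 in mouse 1, 0.661 in mouse 2 and 2.63 in mouse 3. Such intervals cover counting error only and compare pairs of libraries, not genotypes. Over all genes tested, 47.5%, 49.2% and 49.1% were higher in the Adamts18-/- gland of mice 1, 2 and 3, and in mouse 3 only 3.71% had a difference as high as that of the lowest of the 10 genes.

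**Figure D2:**
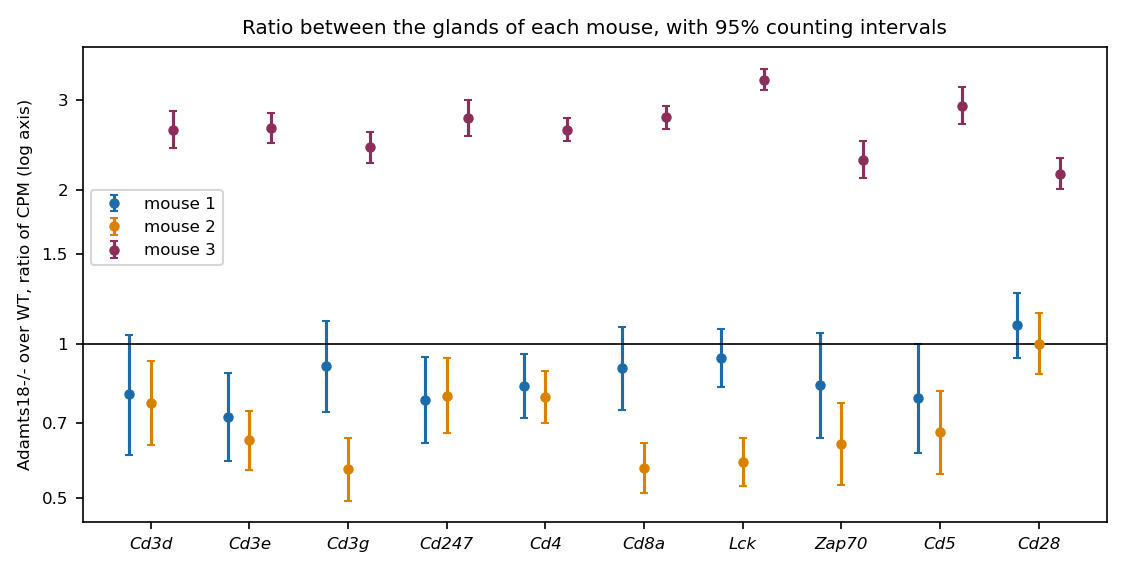
Ratio of CPM between the Adamts18-/- and the WT gland (log axis) of each mouse for each gene, with 95% counting intervals as bars and a line at 1. The ratios of mouse 3 lie between 2.15 and 3.28, those of mouse 2 between 0.569 and 1.0, and those of mouse 1 between 0.721 and 1.09.

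The sign of the fitted values rested on mouse 3. Without mouse 3, the log2 fold changes of 9 genes were negative, and that of Cd28 was 0.07. Cd3e then passed the thresholds of the study as a lower gene (log2 fold change -0.54, unadjusted p = 0.0155, adjusted p = 0.435, edgeR's quasi-likelihood test), as did 1.65% of all genes tested without that mouse. The other 8 negative values lay between -0.30 and -0.49, and none of these passed.

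The hosts themselves were compared in the same fit by the mouse term. By unadjusted p, all 10 genes differed between mice (p between 0.0012 and 0.00766, edgeR's quasi-likelihood test), but so did 27.2% of all genes tested. By adjusted p none passed (0 of 10, adjusted p between 0.0584 and 0.0871), against 0.628% of all genes tested. Without a filter on low counts, 9 of 10 passed by adjusted p, against 4.5% of all genes then tested. Among the WT glands alone, the level in mouse 3 exceeded that in mouse 1 by 3.51-fold (Cd247) to 8.13-fold (Cd8a), and among the Adamts18-/- glands by 6.98-fold (Cd28) to 25.1-fold (Cd8a). The WT gland of mouse 2 lay between the other WT glands for each gene, from 1.20-fold (Cd28) to 3.43-fold (Cd8a) above mouse 1.

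Markers of B cells and of lymph node, like these genes, had their highest sums in the Adamts18-/- gland of mouse 3. Elsewhere the lymph node sum did not follow them. A list of 7 lymph node genes summed to 33.5, 35.6 and 38.6 CPM in WT and to 33.3, 46.4 and 435 CPM in Adamts18-/- glands. The 10 genes summed to 44.5, 84.3 and 225 CPM in WT and to 38.9, 57.2 and 607 CPM in Adamts18-/- glands. A list of 10 B cell genes summed to 27.9, 20.9 and 174 CPM in WT and to 23.2, 18.2 and 941 CPM in Adamts18-/- glands, and 10 of 10 were higher in the Adamts18-/- gland of mouse 3. The ratio of the T cell sum to the B cell sum was 1.59 and 1.68 in the WT and Adamts18-/- glands of mouse 1, 4.04 and 3.14 in those of mouse 2, and 1.30 and 0.645 in those of mouse 3. The Adamts18-/- gland of mouse 3 thus exceeded the contralateral gland by 5.42-fold in B cell and by 2.70-fold in T cell transcripts.

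Genes of high endothelial venules and follicles, from a list for lymph node and from the B cell list, also stood out in the Adamts18-/- gland of mouse 3. Glycam1, a mucin-like glycoprotein made by high endothelial venules and also by secretory mammary epithelium, was counted 21921 times there, against 55 times in the contralateral gland and 10 to 196 times in the other 4. Chst4, the sulfotransferase of high endothelial venules, was counted 181 times there and 0 to 3 times in the other glands, and Madcam1, an adhesion molecule of mucosal and lymph node venules, 130 times against 11 to 26. Cr2, the complement receptor of mature B cells and follicular dendritic cells, was counted 6336 times there and 266 times in the WT gland of mouse 3. In mouse 1 the WT gland had more reads of Glycam1 (196 against 10) and Cr2 (52 against 7) than the Adamts18-/- gland. Cxcl13, the chemokine of B cell follicles, was at 26.4, 30.2 and 31.8 CPM in WT and at 29.1, 41.5 and 64.8 CPM in Adamts18-/- glands and passed the thresholds of the study (log2 fold change 0.54, standard error 0.18, unadjusted p = 0.035, adjusted p = 0.987, edgeR's quasi-likelihood test), but not without mouse 2 (0.58), without mouse 3 (0.31) or without the mouse as a block (0.61). The chemokine Ccl21a of the lymph node list was at 0 reads in 5 glands and 1 read in the Adamts18-/- gland of mouse 3. Reads shared between near-identical genes could have been split or dropped by the counting, so this value need not mean absence. Ccl19 and Il7 of that list were 1.82- and 1.54-fold higher in the Adamts18-/- than in the WT gland of mouse 3. Both were lower in the Adamts18-/- gland of mice 1 and 2. Glycam1 made up 356 of the 435 CPM of the lymph node list in the Adamts18-/- gland of mouse 3, and without it, an alternative chosen after seeing the data, the ratio of the sums in that mouse was 2.09 in place of 11.3. The part of lymph node tissue in the T cell values was not tested.

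By the sums of their listed genes, other leukocytes differed less within mouse 3. A list of 6 natural killer cell genes summed to 15.8, 25.7 and 32.9 CPM in WT and to 17.3, 18.4 and 39.5 CPM in Adamts18-/- glands, a ratio of 1.20 in mouse 3. There the activating receptor Ncr1 was at 4.85 and 5.02 CPM and Klrd1 at 8.08 and 13.9 CPM, and 3 of the 6 genes were lower in the Adamts18-/- gland. Dendritic cell genes (7) had a ratio of sums of 1.03, 0.981 and 1.55 in mice 1, 2 and 3. All 7 were higher in the Adamts18-/- gland of mouse 3, with Flt3 at 2.70-, Siglech at 2.37- and Xcr1 at 2.33-fold. The others were 1.13- to 1.75-fold higher there. Macrophage genes (9) summed to 1540 and 1210 CPM in the WT and Adamts18-/- glands of mouse 3, and 9 of 9 were lower in its Adamts18-/- gland. None of these lists held a gene past the thresholds of the study (0 of 22 tested, where 3.01% of all genes tested did).

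Several keratins were lower in the Adamts18-/- glands. Of the 8 epithelial genes, 5 (Krt7, Krt8, Krt14, Krt18 and Krt19) passed the thresholds of the study as lower, against 1.84% of all genes tested, though none by adjusted p with edgeR (0). With DESeq2's Wald test, Krt19 alone of the 5 passed by adjusted p (0.000624), against 0.409% of all genes tested. The sums of all 8 genes gave ratios of 0.919, 0.596 and 0.664 in mice 1, 2 and 3. In mouse 1, Krt14 was at 55.3 and 56.0 CPM in the WT and Adamts18-/- glands, and Krt5, which did not pass (unadjusted p = 0.0711, edgeR's quasi-likelihood test), at 64.4 and 70.9 CPM. Of the 5, Krt19 alone passed also without mouse 2, where the log2 fold changes of the others were -0.33 (Krt7), -0.35 (Krt8), -0.49 (Krt14) and -0.41 (Krt18), and Krt14 did not pass without mouse 3 (-0.33). Krt7 and Krt14 did not pass without the mouse as a block (-0.41 and -0.58). Relative to the epithelial sum, the 10 T cell receptor genes amounted to 3.21%, 4.64% and 11.4% in the WT glands and 3.05%, 5.29% and 46.3% in the Adamts18-/- glands. Set against epithelial transcripts, the Adamts18-/- gland of mouse 2 thus held the higher value. The part of the graft's epithelial content in the T cell values was not tested.

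**Figure D3:**
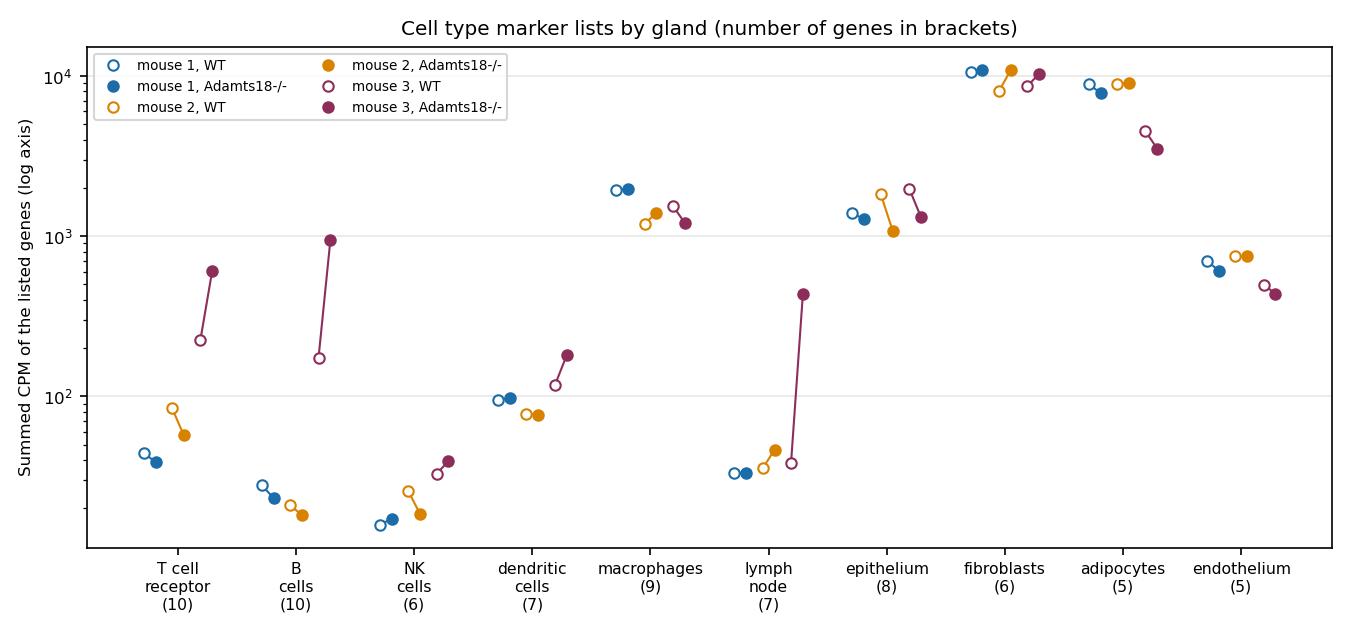
Summed CPM (log axis) of the 10 T cell receptor genes and of marker lists for other cell types in each gland, with open points for WT and filled points for Adamts18-/- glands, joined within a mouse. In mouse 3 the T cell, B cell and lymph node sums are 2.70-, 5.42- and 11.3-fold higher in the Adamts18-/- gland (2.09-fold for lymph node without Glycam1), while the macrophage, epithelial, adipocyte and endothelial sums are lower there.

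Other genes of the pathway were taken from lists of 82 genes, of which 77 were found and tested. Of these, 3 passed the thresholds of the study as higher (1.17% of all genes tested did) and none as lower (0), with a median log2 fold change of 0.31 against 0.001 over all genes tested. In mouse 3, 76 of the 77 were higher in the Adamts18-/- gland, against 49.1% of all genes tested, while in mice 1 and 2 it was 31 and 18. None passed by adjusted p with edgeR (0, against 0.0% of all genes tested), and 1 did with DESeq2, against 0.409% of all genes tested. By the thresholds of the study, limma-voom gave 5 of the 77, against 3.97% of all genes tested, and a fit without the mouse as a block 0, against 1.98%.

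The receptor's own constant chains were highest in the same gland as the CD3 genes, the Adamts18-/- gland of mouse 3. Trac, the constant segment of the α chain, was at 2.19, 5.72 and 15.9 CPM in WT and at 2.37, 4.01 and 47.5 CPM in Adamts18-/- glands. The β chain segments Trbc1 and Trbc2, near-identical copies between which the counting could have split reads, had ratios of 3.19 and 2.79 in mouse 3. Their log2 fold changes over all mice, 0.41 (Trac), 0.35 (Trbc1) and 0.28 (Trbc2), did not pass.

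Among 38 partners in signaling, 38 of 38 were higher in the Adamts18-/- gland of mouse 3, 7 of 38 in mouse 2 and 14 of 38 in mouse 1. The gene past the thresholds was Prkcq, the protein kinase C of the immunological synapse, which is also abundant in skeletal muscle. It was at 7.42, 7.47 and 14.0 CPM in WT and at 12.0, 11.4 and 46.7 CPM in Adamts18-/- glands, and was higher in the latter in all 3 mice. The fitted difference was 1.02 on the log2 scale (standard error 0.26, unadjusted p = 0.0129, adjusted p = 0.987, edgeR's quasi-likelihood test). Without mouse 3 it was 0.66 (adjusted p = 0.136, same edgeR test). DESeq2's Wald test on all 3 mice gave an adjusted p of 0.0475. Without the mouse as a block the gene did not pass (unadjusted p = 0.0939, edgeR's quasi-likelihood test). In mice 1 and 2 its direction was thus opposite to that of 9 of the 10 genes. The adaptor Lat was higher in the Adamts18-/- gland of mouse 3 by 3.77-fold and the CD8 β chain Cd8b1 by 3.96-fold. The most abundant partners after Ptprc, the diacylglycerol kinase Dgkz and the phospholipase Plcg1, are used by many cell types, and their ratios in mouse 3 were 1.06 and 1.21.

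Of 12 transcription factors, 11 were higher in the Adamts18-/- gland of mouse 3, and none passed (0). Ets1 and Ikzf1, 2 of the most abundant, had log2 fold changes of 0.30 and 0.47. Tcf7, a factor of naive and memory T cells, was at 40.4 and 144 CPM in the WT and Adamts18-/- glands of mouse 3, and Lef1 at 6.52 and 37.1 CPM. Of 7 cytotoxic effector genes, 6 were lower in the Adamts18-/- gland in mouse 1 and 6 in mouse 2, and 7 of 7 were higher in mouse 3. Ccl5, the most abundant of them, was at 23.0 and 70.8 CPM in mouse 3, whereas Gzma (granzyme A) was at 6.5 and 6.76 CPM. Of 11 genes of T cell traffic and state, 6, 3 and 11 were higher in the Adamts18-/- gland of mice 1, 2 and 3, and none passed (0).

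Ligands of the costimulatory receptors, which sit on antigen-presenting cells, gave the other calls. Cd80, a ligand of CD28, was at 5.93, 3.31 and 6.16 CPM in WT and at 7.36, 5.21 and 9.09 CPM in Adamts18-/- glands, a log2 fold change of 0.51 (standard error 0.14, unadjusted p = 0.0178, edgeR's quasi-likelihood test). Cd86, its homologue, was at 20.2, 12.5 and 24.8 CPM against 20.6, 17.9 and 35.1 CPM (log2 fold change 0.35, standard error 0.13, unadjusted p = 0.0463). Both were higher in the Adamts18-/- gland of all 3 mice, but their groups overlapped, and the adjusted p was 0.987 for both. Cd80 did not pass without mouse 1 (unadjusted p = 0.0512) or mouse 2 (0.0806), and Cd86 did not pass without mouse 2 (0.196) or mouse 3 (0.113), by the same edgeR test. Icosl and Cd274 had log2 fold changes of 0.40 and 0.11 and did not pass.

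**Figure D4:**
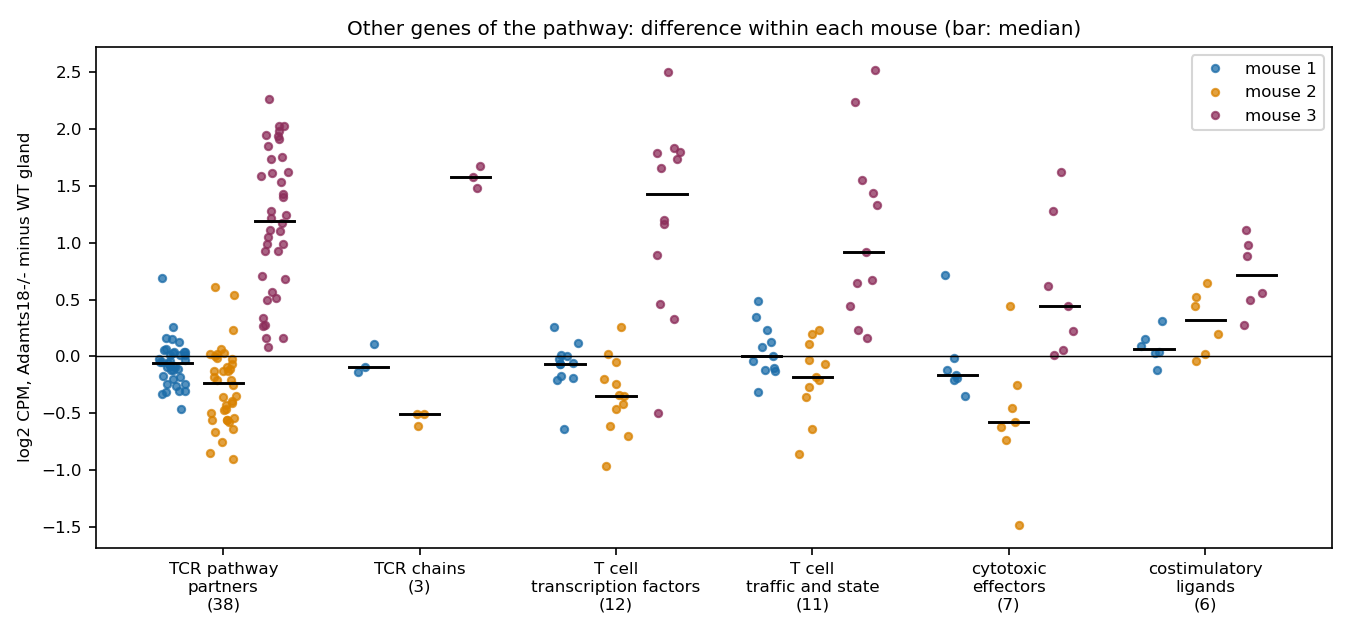
Difference in log2 CPM between the Adamts18-/- and WT gland of each mouse, 1 point per gene, for 6 lists of other T cell genes, with the median as a bar. Medians of the signaling partners were -0.06, -0.23 and 1.19 in mice 1, 2 and 3, and the costimulatory ligands had medians above 0 in each mouse (0.07, 0.32 and 0.72).

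Ratios of reads between T cell genes of 1 library do not depend on how libraries were scaled. The ratio of Cd4 to Cd8a reads, a measure of the balance of the co-receptors, was 1.84 and 1.70 in the WT and Adamts18-/- glands of mouse 1, 0.765 and 1.05 in those of mouse 2, and 1.10 and 1.04 in those of mouse 3. The glands of mouse 1 thus had the highest ratios, and their counting intervals (1.59 to 2.14 and 1.41 to 2.04) did not overlap those of the other mice. Between genotypes the log2 ratio differed by 0.09 ± 0.32 (SD, n = 3 pairs), with an exact paired permutation p = 1.0 (two-sided, where 3 pairs cannot give less than 0.25). In mouse 2 the difference of 0.46 was larger than in mice 1 (-0.12) and 3 (-0.08).

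Relative to 100 reads of Cd3d, Cd3e and Cd3g together, the other genes varied less from gland to gland than in CPM. Zap70 lay between 22.1 and 28.0 and Cd5 between 21.1 and 27.2, 1.27- and 1.29-fold ranges. Lck lay between 61.4 and 94.7, Cd4 between 46.3 and 77.5 and Cd8a between 40.8 and 63.5. Cd247 was higher in both glands of mouse 1 (42.5 and 41.3) than in the other 4 (22.8 to 28.5). Cd28 varied most of the 10, from 30.2 to 79.0, and was highest in the glands of mouse 1 (58.2 in WT and 79.0 in Adamts18-/-).

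Genes that mark T cell states differed between hosts on this scale; those named in this paragraph were chosen after their values were seen. Foxp3, the factor of regulatory T cells, stood at 18.7, 20.6 and 15.0 per 100 CD3 reads in WT and at 22.2, 32.6 and 10.9 in Adamts18-/- glands. The inhibitory receptor Ctla4 was highest in both glands of mouse 2 (62.8 and 74.9) and lowest in the Adamts18-/- gland of mouse 3 (13.1). Pdcd1 (PD-1) likewise ranged from 13.8 in that gland to 50.2 in the Adamts18-/- gland of mouse 2. Relative to CD3 reads, Foxp3, Ctla4 and Pdcd1 were thus each higher in the Adamts18-/- than in the WT gland of mice 1 and 2 and lower in mouse 3. Dgkz and Plcg1, used by many cell types, moved the same way on this scale. In CPM, Foxp3 differed by -0.07, 0.02 and 0.89 on the log2 scale in mice 1, 2 and 3. Ctla4 differed by 0.26, -0.39 and 0.51 and Pdcd1 by -0.05, -0.35 and 0.16. The traffic genes differed among themselves in mouse 3. The chemokine receptor Ccr7, which B cells also express, stood at 24.9 per 100 CD3 reads in the WT and 46.2 in the Adamts18-/- gland of that mouse, while S1pr1, the receptor for exit from lymphoid organs, stood at 138 and 73.9 and its regulator Klf2 at 106 and 49.0, both of them also genes of endothelium. The naive-cell factor Lef1 stood at 11.6 and 26. Gzma stood at 11.6 and 4.74 in these glands and Tbx21, a factor of effector cells, at 8.84 and 4.37, whereas Ccl5 stood at 41.0 and 49.6 and Prf1 (perforin) at 6.24 and 5.97. These differences were not tested, and cells other than T cells also express several of these genes. In CPM, each gene named in this paragraph was higher in the Adamts18-/- than in the WT gland of mouse 3. Tbx21 was at 4.95 (WT) and 6.24 CPM there, S1pr1 at 77.5 and 106 and Klf2 at 59.5 and 70.0. The mouse 3 values of Lef1 rest on 367 and 2280 reads and those of Tbx21 on 279 and 384.

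**Figure D5:**
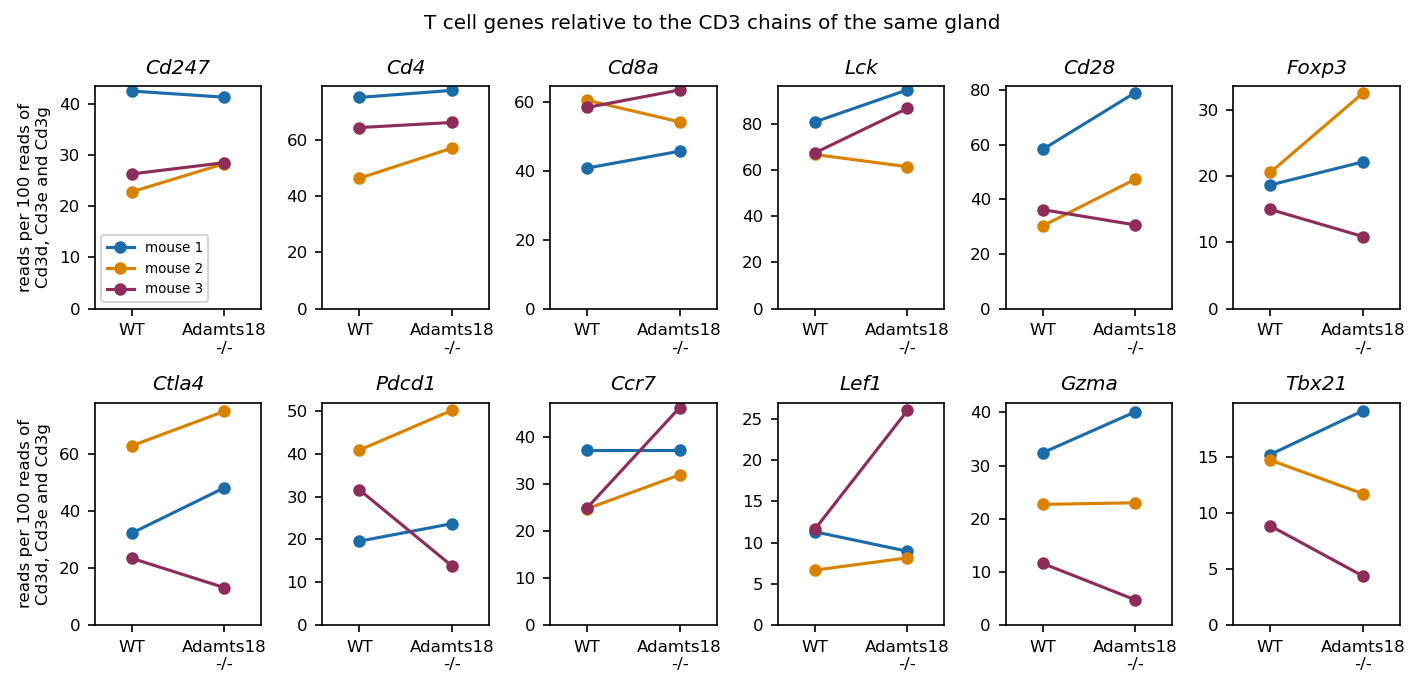
Reads of 12 T cell genes per 100 reads of Cd3d, Cd3e and Cd3g in the same gland, with lines joining the contralateral glands of each mouse and axes that start at 0. Cd4, Cd8a and Lck stay within a 1.68-fold range, whereas in mouse 3 Ccr7 and Lef1 are higher and Ctla4, Pdcd1, Gzma and Tbx21 lower in the Adamts18-/- than in the WT gland. In CPM the latter were higher in that gland, Ctla4 at 13.1 (WT) and 18.7, Pdcd1 at 17.7 and 19.7. Gzma was at 6.5 and 6.76 CPM and Tbx21 at 4.95 and 6.24.

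The profile of the 10 genes over the 6 libraries was compared with that of all other genes. Correlations between the 10 genes (Pearson's r of log2 CPM, 6 libraries) lay between 0.945 and 0.998. Of 14699 other genes with a mean of at least 1 CPM, Trbc2 was most like the mean of the 10 (r = 0.9993), followed by Cd6 (0.9988), a receptor related to Cd5, the lymphocyte GTPase Gimap3 (0.9985), Fam169b, Btbd19, Zfp831, Sfi1 and Cacna1e. Btbd19 (7.86 to 12.6 CPM) and Sfi1 (52.2 to 83.7 CPM) had the same shape over a much narrower range than Trbc2 (3.29 to 61.2 CPM). The first gene of the B cell list came at rank 233, and 4.81% of the genes compared had r over 0.95. With 6 libraries that share hosts and a wide gap between mouse 3 and the others, such values describe these libraries and no more.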

How the data were processed

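RNA-seq libraries of 3 pairs of contralateral grafted glands were compared. The authors deposited raw read counts per gene symbol, 1 column per gland (0 columns of other samples). The submitters' processing notes list bcl2fastq 2.18, TopHat2 2.0.11, featureCounts 1.6.2, edgeR and the build mm9. The annotation and strand setting are not given in the sources used here. Reads shared between near-identical genes could have been split or dropped.

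Counts were tested with edgeR 4.0.16 in R 4.3.3 (filterByExpr, TMM scaling, quasi-likelihood fit, genotype and mouse as terms) over 17345 genes, with Benjamini-Hochberg adjustment. The median biological coefficient of variation was 16.3%. CPM used TMM sizes, and log2 CPM a prior count of 2. The pairing comes from the mouse number in the titles and the text on contralateral glands. After removal of group means, contralateral glands correlated at 0.512, 0.505 and 0.639 across genes. No libraries were near-identical (chi-square per degree of freedom 44 to 468). The p-values for genotype with the mouse as a block and all mice kept rest on the spread between these 3 pairs. Those of the mouse term set differences between hosts against the spread left within hosts. Without the block, they rest on the spread between libraries of the same genotype. Fits were tested on simulated data.

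Exon lengths came from GENCODE M21, promoters from RefSeq. Adgre1 was matched by its older symbol Emr1, and 6 of 156 listed genes were not matched. Alternatives were DESeq2 1.42.0, limma-voom (limma 3.58.1), no block, RLE or library size scaling, other filters and each mouse left out. Members and lists were chosen with earlier results of these data known. The genes named were the 10, listed genes past the study's thresholds, up to 3 of the most abundant per list and the 8 most alike. Cd8b1, Lat, Tcf7, Lef1, Ccl19, Ccl21a, Chst4, Madcam1, Cr2, Flt3, Xcr1 and the genes of T cell states were named after their values were seen. Some listed genes are not reported here.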

Additional observations from a re-analysis of the deposited data

How the results depend on the processing

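None of the 10 genes (0) passed the study's thresholds with any alternative that kept all 3 mice (without the mouse as a block, DESeq2, limma-voom, RLE or library size scaling, other filters), and with these all 70 fitted values were positive, from 0.09 to 1.2 on the log2 scale. Leaving out mice 1, 2 and 3 in turn gave 0 to 1 genes called (Cd3e without mouse 3). Over these omissions the log2 fold changes ranged from -0.35 to 0.59 (Cd3d), -0.54 to 0.51 (Cd3e), -0.48 to 0.60 (Cd3g), -0.34 to 0.59 (Cd247), -0.30 to 0.59 (Cd4), -0.49 to 0.70 (Cd8a), -0.42 to 0.84 (Lck), -0.45 to 0.51 (Zap70) and -0.46 to 0.66 (Cd5), each lowest value being that without mouse 3. Over all alternatives the adjusted p of the 10 genes lay between 0.435 and 1.0. Between mice, 9 of the 10 genes passed by adjusted p without a filter on low counts, as did 4.5% of the 24591 genes then tested. Without the mouse as a block, 0 of 77 other pathway genes passed the study's thresholds (1.98% of all genes tested), and with limma-voom 5 did (3.97%). DESeq2 alone gave 1 by adjusted p (Prkcq), against 0.409% of all genes tested. The mouse as a block changed no call of the 10 genes. The mean difference of the log2 ratio of Cd4 to Cd8a was 0.09 with or without pairing by mouse. With 3 pairs that moved in opposite directions, fold changes of the size fitted here could not be told from 0.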
